A study of Mus musculus with 12 samples.

Results

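Tubb1, 3 further tubulin genes and the 4 genes of the NF-E2 transcription factor and its repressor were followed in mouse megakaryocytes given the glucocorticoid dexamethasone. The 8 genes are Tubb1, Tubb6, Tuba4a and Tuba8 among the tubulins, Nfe2, Mafg and Mafk for the subunits of NF-E2, and Bach1 for the repressor. Of 30142 genes named on the array 24265 passed a filter on dim genes, and all 8 were among them. Each gene was read from the probe set that carried its symbol and no other. Where a gene has several, the one chosen by the highest mean over the 12 arrays would stand for it, and each of the 8 has 1. The set was put together around Tubb1 with earlier results of these data known, and Tubb1 had been selected on its fall. Its change is therefore given as a description with no test, and the other 7 were tested.

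Megakaryocytes were grown from hematopoietic stem cells of the bone marrow of male C57BL/6 mice, with 100 ng/ml thrombopoietin for 3 days. After a night in medium with 10% charcoal-stripped serum, which lowers steroid hormones, they were purified on an albumin gradient at day 4. Cells of each of 6 cultures were then given 100 nM dexamethasone or its vehicle for 6 h, so that 6 vehicle and 6 dexamethasone arrays form 6 pairs, with no other genotype or agent. Cultures are numbered 1 to 6 here by the labels' replicate number. Their separate culture numbers, in the same order, are 1, 4, 5, 6, 7 and 8, and are not used here. The sources used here do not say whether each came from different mice. Values are log2 levels on the authors' deposited scale, on which the negative control probe sets had medians of 6.15 to 6.39 by array, and the number of arrays limits the precision.

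Megakaryocytes make platelets by extending long processes filled with microtubules, polymers of alpha and beta tubulin. In the finished platelet the microtubules form a ring-shaped coil, built mainly with the beta tubulin that Tubb1 encodes. NF-E2 is a dimer of the p45 subunit, the product of Nfe2, and a small MAF protein such as those of Mafg and Mafk, and mice without p45 have almost no platelets. Tubb1 is a known NF-E2 target. BACH1 pairs with the same small MAF proteins, represses genes at the same kind of site, and leaves DNA when haem binds it.

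The sequences just before the starts of 4 genes are shown: those of Tubb1, Mafg and Mafk because they hold the core motif of these factors, and that of Bach1 because it was the gene called higher and holds none of the motifs marked. They hold the 250 bases before the RefSeq start of each gene on build GRCm38.p6, 5′ to 3′ on the gene's strand, at chr2:174450345-174450594 (plus strand), chr11:120633548-120633797 (minus), chr5:139791286-139791535 (plus) and chr16:87698704-87698953 (plus). Capitals mark matches to TGACNNNGC, the core of the antioxidant response element to which NF-E2 related dimers and BACH1 bind, and to ACANNNTGT, the core of the glucocorticoid response element, each on either strand.
Tubb1: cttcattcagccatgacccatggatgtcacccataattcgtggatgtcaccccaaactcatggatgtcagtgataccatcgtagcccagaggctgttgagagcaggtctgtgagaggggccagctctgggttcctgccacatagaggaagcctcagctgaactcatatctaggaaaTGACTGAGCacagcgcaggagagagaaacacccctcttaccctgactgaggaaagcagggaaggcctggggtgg
Mafg: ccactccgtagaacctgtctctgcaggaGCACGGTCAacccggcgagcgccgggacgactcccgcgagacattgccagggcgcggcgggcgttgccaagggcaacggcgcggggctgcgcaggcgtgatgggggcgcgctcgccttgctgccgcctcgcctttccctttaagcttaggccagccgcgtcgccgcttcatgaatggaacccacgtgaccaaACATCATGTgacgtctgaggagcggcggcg
Mafk: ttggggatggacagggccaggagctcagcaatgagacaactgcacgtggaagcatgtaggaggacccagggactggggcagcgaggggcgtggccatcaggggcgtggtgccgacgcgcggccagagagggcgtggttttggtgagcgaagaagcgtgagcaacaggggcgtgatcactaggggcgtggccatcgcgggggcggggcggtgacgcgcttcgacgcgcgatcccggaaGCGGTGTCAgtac
Bach1: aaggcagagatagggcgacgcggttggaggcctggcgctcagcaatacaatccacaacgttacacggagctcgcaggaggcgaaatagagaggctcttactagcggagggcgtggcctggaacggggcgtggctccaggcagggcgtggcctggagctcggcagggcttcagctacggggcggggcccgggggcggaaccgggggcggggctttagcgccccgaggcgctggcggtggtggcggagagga

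Tubb1 holds TGACNNNGC once, at positions -74 to -66 counted back from its start, where it reads TGACTGAGC on the gene's strand. Mafk holds it at -13 to -5 and Mafg at -222 to -214, both on the opposite strand. Of the 6 genes with a promoter in the RefSeq table, these 3 have the motif, against 10.2% of all 32851 promoters of that length. Mafg also holds ACANNNTGT, at -30 to -22, a motif present in 5.84% of promoters. The longer NF-E2 motif GCTGAGTCA, of which every copy also holds TGAGTCA and TGACNNNGC, is in 0 of the 6 and in 0.39% of promoters. TGAGTCA (4.46% of promoters) and the GATA motif AGATAA (9.99%) were in 0 of the 6 as well, and CAGGAAG, an ETS motif in 10.8%, was in Tuba8 alone. A match describes the letters in this window and shows no binding.

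The cells had the defining genes of megakaryocytes, and the dexamethasone arrays had the response that the label implies. Of the 12 megakaryocyte markers measured, 0 were under the negative controls on every array. Tsc22d3, the glucocorticoid-induced leucine zipper, rose 5.57-fold and Fkbp5, a receptor co-chaperone, 5.19-fold, both in 6 of 6 cultures. Over all genes tested 2900 were called at a Benjamini-Hochberg adjusted p under 0.05 in limma with culture as a block, 12% of those tested. Of these 1794 were higher (7.39%) and 1106 lower (4.56%). The split depends on scaling, with 1417 higher and 1738 lower after quantile normalization, and 1718 and 726 after centring arrays on their medians. The median change of all genes was -0.013. Neutrophil markers were present too, as described with the differences between cultures.

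Tubb1 was lower with dexamethasone in every culture, by more than 1 log2 unit in 5 of 6, while Nfe2, the gene for the p45 subunit, did not pass the test in either direction. Among the 7 tested genes 2 fell (Tuba4a and Tubb6), 1 rose (Bach1) and 4 did not pass (Tuba8, Nfe2, Mafg and Mafk), beside the 4.56% and 7.39% of all genes called lower and higher. The ranges of the 2 treatments did not overlap for 2 of these 7, Tubb6 and Bach1, beside 6.73% of all genes. The change had the same direction in 6 of 6 cultures for 4 of the 7 (Tuba4a, Tubb6, Mafg and Bach1), beside 19.5% of all genes. Tubb1, chosen on its fall, is left out of these counts. The direction of each of the 8 genes' mean change was the same under the other scalings and with cultures left out. The rest of the 17 other settings (filters, block, variance prior and probe sets) leave that mean as it is.

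**Figure D1:**
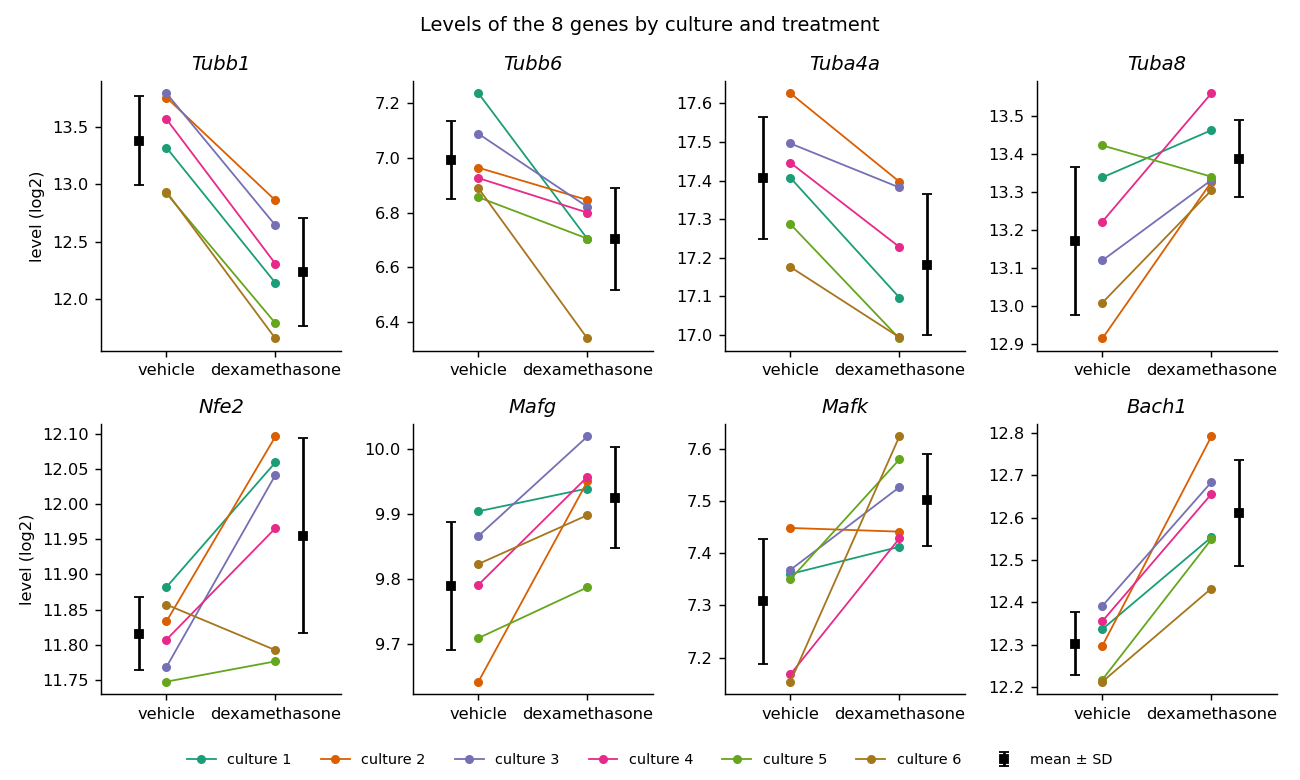
Log2 level (y axis, own scale in each panel) of the 8 genes in vehicle and dexamethasone, with a line for each of the 6 cultures and squares for mean ± SD. All 6 lines fall for Tubb1, Tubb6 and Tuba4a, all 6 rise for Mafg and Bach1, and 5 of 6 rise for Tuba8, Nfe2 and Mafk.

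In vehicle Tubb1 lay between 12.92 and 13.79 with a median of 13.44, and in dexamethasone between 11.66 and 12.86 with a median of 12.23. Every dexamethasone array lay below every vehicle array, by little at the edge: culture 2 with dexamethasone (12.86) stood just under culture 5 with vehicle (12.92). The means were 13.38 ± 0.39 and 12.24 ± 0.47 (SD, n = 6), a change of -1.14 (SE 0.06), or 2.21-fold lower. By culture the changes were -1.17, -0.89, -1.15, -1.25, -1.13 and -1.27 for cultures 1 to 6. They spread far less (SD 0.14) than the levels did (SD 0.39 and 0.47). Of the tested genes 4 fell further than Tubb1. In bulk RNA, fewer cells of a type and less RNA per cell cannot be told apart.

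Tuba4a encodes an alpha tubulin that is abundant in platelets. Its levels ran from 17.18 to 17.63 in vehicle, with a median of 17.43, and from 16.99 to 17.40 in dexamethasone, with a median of 17.16. These ranges overlapped, but each culture was lower with dexamethasone than with vehicle, by 0.11 to 0.31 in size. The mean fell from 17.41 ± 0.16 to 17.18 ± 0.18 (SD, n = 6), a change of -0.22 (SE 0.04) and 1.17-fold, with a limma adjusted p of 0.0125. The call rests on the pairing of the arrays. It was lost without the replicate block (adjusted p = 0.146), with culture as a random effect (0.0751) and without cultures 2 and 3 (0.0505), and the change was then -0.22, -0.22 and -0.25.

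Tubb6, a beta tubulin found in many tissues, was dim, though above the negative control median of each of the 12 arrays. It lay between 6.86 and 7.24 in vehicle (median 6.94) and between 6.34 and 6.85 in dexamethasone (median 6.75), without overlap. The mean fell from 6.99 ± 0.14 to 6.70 ± 0.19 (SD, n = 6), a change of -0.29 (SE 0.07) and 1.22-fold, with a limma adjusted p of 0.0351. The call is a weak one. It was lost under 9 of 17 other settings, among them leaving out culture 1, 3, 4, 5 or 6, with adjusted p from 0.0168 to 0.106 over all of them. Culture 6 had the largest fall (-0.55), cultures 1 and 3 followed (-0.53 and -0.27), and the falls in cultures 2, 4 and 5 were -0.12, -0.13 and -0.15.

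Tuba8, an alpha tubulin also present in platelets, did not pass. Its range was 12.91 to 13.42 in vehicle (median 13.17) and 13.30 to 13.56 in dexamethasone (median 13.34), with overlap. The means were 13.17 ± 0.19 and 13.39 ± 0.10 (SD, n = 6), a difference of 0.22 (SE 0.07) with a limma adjusted p of 0.0723, higher in 5 of 6 cultures and lower by 0.08 in culture 5. Without culture 5 the difference was 0.28 with an adjusted p of 0.0245.

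**Figure D2:**
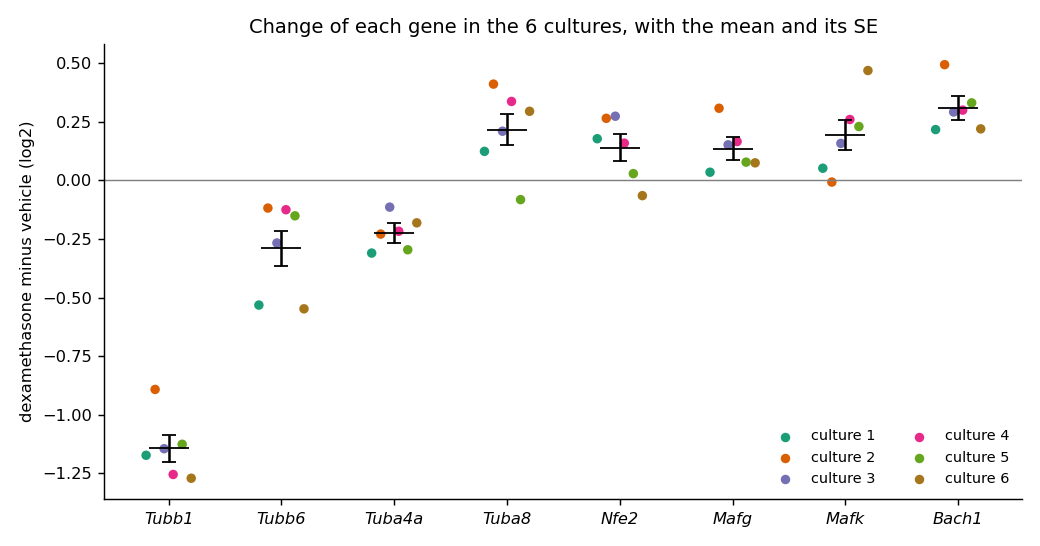
Dexamethasone minus vehicle on the log2 scale (y axis) for each of the 8 genes (x axis), with a point for each culture, a bar for the mean and error bars for its SE. Tubb1 lies from -1.27 to -0.89, and Bach1, the highest mean, from 0.22 to 0.49.

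The p45 subunit gene Nfe2 had the most even level of the 8 in vehicle, between 11.75 and 11.88 (median 11.82), and lay between 11.78 and 12.10 in dexamethasone (median 12.00). The ranges overlapped. The means were 11.82 ± 0.05 and 11.96 ± 0.14 (SD, n = 6), and the difference of 0.14 (SE 0.06) had a limma adjusted p of 0.154. It was higher in 5 of 6 cultures and did not pass under any of the 17 other settings, where adjusted p ranged from 0.0883 to 0.598. Cultures 1 to 4 gained 0.18, 0.27, 0.27 and 0.16, whereas cultures 5 and 6 changed by 0.03 and -0.06.

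The small MAF partners were not called either. Mafg was between 9.64 and 9.90 in vehicle (median 9.81) and between 9.79 and 10.02 in dexamethasone (median 9.94), with overlap. Its means of 9.79 ± 0.10 and 9.93 ± 0.08 (SD, n = 6) differed by 0.14 (SE 0.05), higher in 6 of 6 cultures, with a limma adjusted p of 0.114. Over the 17 other settings that p ranged from 0.0644 to 0.427. Mafk lay near the dim end, between 7.15 and 7.45 in vehicle (median 7.35) and between 7.41 and 7.62 in dexamethasone (median 7.48). The groups overlapped, through culture 2 with vehicle. Its means of 7.31 ± 0.12 and 7.50 ± 0.09 (SD, n = 6) differed by 0.19 (SE 0.06) with a limma adjusted p of 0.0932, and by the random effect of culture the p was 0.0406.

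Bach1 rose in all 6 cultures. It lay between 12.21 and 12.39 in vehicle (median 12.32) and between 12.43 and 12.79 in dexamethasone (median 12.61), without overlap. The mean went from 12.30 ± 0.07 to 12.61 ± 0.13 (SD, n = 6), a rise of 0.31 (SE 0.05) and 1.24-fold, with a limma adjusted p of 0.00444. The call held under all 17 other settings, with changes from 0.26 to 0.33 and adjusted p up to 0.0403. The rise was largest in culture 2 (0.49) and smallest in cultures 1 and 6 (0.22 in both). Culture 2 was also the one in which Tubb1 fell least.

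Cultures differed more in Tubb1 than in nearly any other gene. Its SD over the 6 cultures was at or above that of 98.4% of tested genes in vehicle and of 99.8% in dexamethasone, where the median SD of all genes was 0.125 and 0.107. Nfe2 stood at the other end in vehicle, where its SD of 0.05 was above that of only 5.66% of genes, and in dexamethasone it lay at 68.2%. For Tuba4a the shares were 67.0% and 83.2%, and for Bach1 17.2% and 61.3%. Without any 1 culture the SD of Tubb1 stayed between 0.354 and 0.433 in vehicle and between 0.396 and 0.521 in dexamethasone.

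The order of the cultures for Tubb1 was nearly the same in both treatments. Cultures 2, 3 and 4 were highest and cultures 5 and 6 lowest in each. Between vehicle and dexamethasone levels of Tubb1 r was 0.97 and rho 0.89 (n = 6). No p is given for them, because Tubb1 was chosen on its fall over the same pairs. This comparison of treatments was added after the data were seen. Without the 2 cultures farthest from the median the r of Tubb1 was 0.91. For Tuba4a r was 0.92 (exact permutation p = 0.00833, n = 6), rho 0.94 (exact permutation p = 0.0167, n = 6), and r without the 2 farthest 0.94. Adjustment over 8 relations, with Tubb1 among them, gave Tuba4a 0.0444 for r and 0.133 for rho. The 0.0444 is set by the p of Tubb1, so no call is made from it. The other 6 genes had r from -0.32 to 0.59 with adjusted p of at least 0.533 by exact permutation.

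Tuba4a followed Tubb1 from culture to culture in both treatments. Over the 6 vehicle arrays r was 0.92 (exact permutation p = 0.00556, adjusted over 14 relations 0.0259, n = 6) and rho 0.89 (exact permutation p = 0.0333, adjusted 0.117, n = 6). Over the 6 dexamethasone arrays r was 0.98 (exact permutation p = 0.00278, adjusted 0.0195, n = 6) and rho 0.94 (exact permutation p = 0.0167, adjusted 0.0778, n = 6). Without the 2 arrays farthest from the median of Tubb1, r was 0.76 in vehicle and 0.99 in dexamethasone. The smallest permutation p that 6 arrays without ties can give is 0.0028 for rho, and for r it can be lower. The 2 treatments share their cultures, so they do not repeat each other independently.

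Bach1 rose with treatment, where Tubb1 was lower, but followed Tubb1 between cultures given dexamethasone. Over the dexamethasone arrays r was 0.96 (exact permutation p = 0.00278, adjusted 0.0195, n = 6) and rho 1.0 (exact permutation p = 0.00278, adjusted 0.0389, n = 6), with r = 0.89 without the 2 farthest arrays. Over the vehicle arrays r was 0.85 (exact permutation p = 0.0472, adjusted 0.11, n = 6) and rho 0.77 (exact permutation p = 0.103, adjusted 0.206, n = 6). That relation rests on cultures 5 and 6, without which r was 0.15, and it depends on scaling. After quantile normalization r was 0.98 with an adjusted p of 0.0097 by exact permutation, and after centring on medians 0.61 with 0.433. Nfe2 had r = -0.06 in vehicle (exact permutation p = 0.921, adjusted 0.938, n = 6; rho -0.03, p = 1.0, adjusted 1.0; r without the 2 farthest arrays -0.81), and the sign turned after quantile normalization (r = 0.55). In dexamethasone its r was 0.88 (exact permutation p = 0.0389, adjusted 0.109, n = 6; rho 0.77, p = 0.103, adjusted 0.206; r without the 2 farthest arrays 0.77). After centring on medians that r was 0.91 with an adjusted p of 0.0467 by exact permutation. The difference between the treatments was not tested. For Tubb6, Tuba8, Mafg and Mafk r ran from -0.43 to 0.42 in vehicle and from -0.63 to 0.80 in dexamethasone. The smallest adjusted p among them was 0.0583 by exact permutation, for Tubb6 in dexamethasone (rho 0.94, adjusted 0.0778; r without the 2 farthest arrays 0.87), and after centring on medians it was 0.0467.

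**Figure D3:**
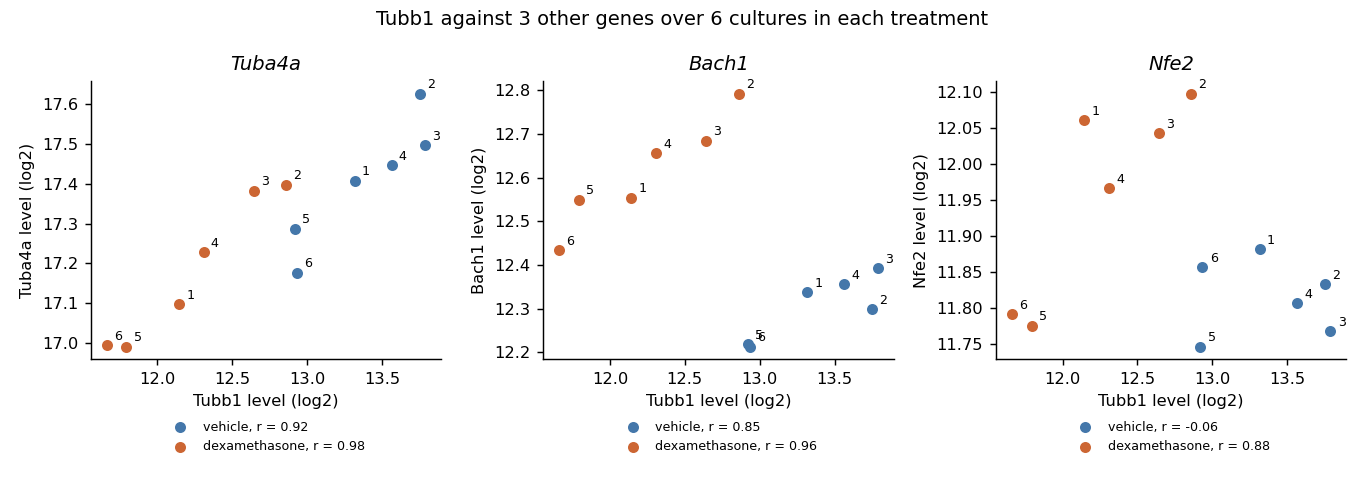
Log2 level of Tuba4a, Bach1 and Nfe2 (y axes) against that of Tubb1 (x axis) in the 6 vehicle and the 6 dexamethasone arrays, each point marked with its culture. Tuba4a rises with Tubb1 in both treatments (r = 0.92 and 0.98). The Bach1 points of dexamethasone lie above those of vehicle, with r = 0.85 in vehicle and 0.96 in dexamethasone, and Nfe2 has r = -0.06 and 0.88.

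Genes whose values were most like those of Tubb1 over the 12 arrays were Sytl4 (r = 0.99), which encodes the granule protein granuphilin, Rasa3, a RAS and RAP GTPase activating protein of platelets (0.98), Arhgap18 (0.98), Gnaq, a G protein subunit that platelet receptors signal through (0.98), and Cald1, the actin-binding caldesmon (0.97). All 5 were lower in dexamethasone, by 0.79, 0.63, 0.35, 0.32 and 0.55. They were picked over arrays of both treatments, so this direction follows from the fall of Tubb1 and is no separate result. The mean of each treatment was then taken off, which leaves the differences between arrays of the same treatment. Closest were then Arhgap18 (0.97), Thbs1, the alpha granule protein thrombospondin (0.97), and the surface receptor Slamf1 (0.97). Sytl4 (0.96) and the ARF GTPase activating protein Asap1 (0.96) followed. Tuba4a ranked 7 and Bach1 48 of 24264 genes by that measure (r = 0.96 and 0.91), and 60 genes, 0.247% of those compared, had r over 0.9. These values describe arrays that share cultures and normalization, and the genes were picked as the highest, so no p is given.

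The neutrophil markers S100a8 and S100a9 ran the other way between cultures, with r = -0.78 for both with the treatment means taken off. S100a8 was lowest in culture 2 (10.21 with vehicle and 8.89 with dexamethasone) and next in culture 3 (11.79 and 11.33), and from 12.51 to 13.43 in the other cultures. Cultures 2 and 3 were the 2 with the most Tubb1 in both treatments. Over the 8 neutrophil markers the mean level ran from 7.15 to 8.30 in vehicle and from 6.56 to 7.95 in dexamethasone. Of these 8, 4 fell (4.56% of all genes did), and Elane was under the negative controls on every array. Ltf, 1 of the 4 that fell, was under them on 4 of 6 vehicle and 6 of 6 dexamethasone arrays. The part of the neutrophil markers in the results was not tested. Without cultures 2 and 3 the change of Tubb1 was -1.21 and that of Bach1 was 0.27. Of 4 erythroid, 5 lymphocyte and 5 stromal markers measured, 2, 4 and 4 were under the negative controls on every array. Of 8 mast cell and basophil markers 7 were tested, of which 3 rose and 1 fell (7.39% and 4.56% of all genes did), and the mean level of the 8 was 6.39 to 6.58 in vehicle and 6.53 to 6.72 in dexamethasone. Of 7 monocyte and macrophage markers 1 fell and 0 rose (4.56% and 7.39% of all genes did), with mean levels of 7.80 to 8.14 in vehicle and 7.69 to 7.98 in dexamethasone. Those means join unlike genes. Lyz2 was bright, at 17.46 in vehicle and 17.52 in dexamethasone, and Csf1r and Cd14 were under the negative controls on every array. Of the megakaryocyte markers 3 of 12 rose and 0 fell in limma (7.39% and 4.56% of all genes did). At an unadjusted p under 0.05 in limma 5 were higher and 1 lower, beside a share of all genes that was not counted. Their mean level was 16.07 to 16.23 in vehicle and 16.15 to 16.34 in dexamethasone.

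**Figure D4:**
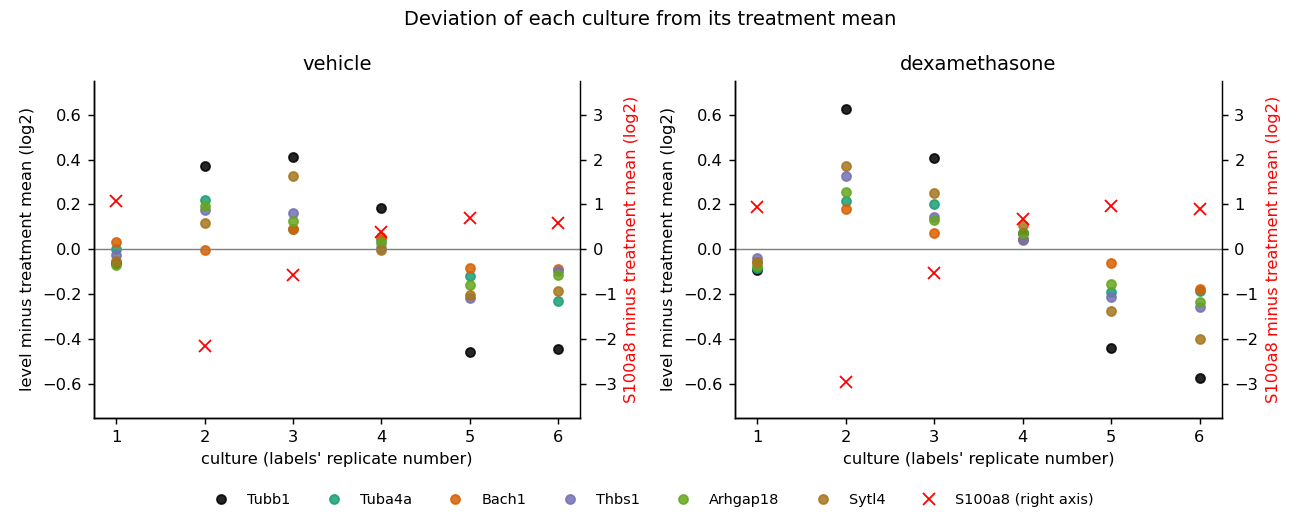
Level of each culture minus the mean of its treatment (left axis, log2) for Tubb1, Tuba4a, Bach1, Thbs1, Arhgap18 and Sytl4, and for the neutrophil gene S100a8 (right axis, with a range 5 times wider). In both treatments Tubb1 is above its mean in cultures 2, 3 and 4 and below it in cultures 1, 5 and 6, and S100a8 is lowest in culture 2.

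Of 13 further tubulins tested 0 fell and 1 rose, beside 4.56% and 7.39% of all genes, with a median change of 0.02, and the other 12 did not pass. In limma 0 were lower at an unadjusted p under 0.05 too, and 3 were higher. The share of all genes under that unadjusted p was not counted, here or for the other lists. The 4.56% and 7.39% do not apply to such counts. The rise was that of Tubb3, a beta tubulin best known from neurons, by 0.45 (SE 0.07, adjusted p = 0.0032 in limma, higher in 6 of 6 cultures). Tubb2a, another beta tubulin, differed by 0.25 and was higher in 6 of 6 cultures, and its close copy Tubb2b by 0.18 in 5 of 6, with limma adjusted p of 0.0811 and 0.11. Tubb3 was under the negative controls on 6 of 6 vehicle and 3 of 6 dexamethasone arrays. The widely used Tubb5 was 12.97 ± 0.12 and 12.99 ± 0.13, Tuba1a 16.51 ± 0.08 and 16.50 ± 0.10, and Tuba1c 16.96 ± 0.06 and 16.87 ± 0.07 (SD, n = 6). Tubulin genes are alike in sequence, and whether probes of one take up RNA of another was not tested.

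Of 18 genes for proteins that fold tubulin 0 rose and 1 fell, beside 7.39% and 4.56% of all genes. At an unadjusted p under 0.05 in limma 7 were lower and 1 higher, beside a share of all genes that was not counted. The count that fell ran from 0 to 5 over the 17 other settings. It was 5 after quantile normalization and 0 after centring and without culture 1, 3, 4, 5 or 6. The 1 that fell was Cct8, a subunit of the chaperonin that folds tubulin and actin, by 0.25 (SE 0.06), and the list's median was -0.008. Of 16 genes for enzymes that modify or sever tubulin 0 fell (2 at an unadjusted p under 0.05 in limma) and 1 rose, Sirt2, a deacetylase of tubulin, by 0.21 (SE 0.05), and the median was -0.037. Cct8 lost its call under 8 of 17 other settings and Sirt2 under 8, which were not all the same.

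Among 25 genes of microtubule ends, nucleation and motors, 7 rose, 1 fell and 17 did not pass, with a median of 0.09, beside 7.39% and 4.56% of all genes. The number that rose was 4 without culture 4, without cultures 2 and 3 and with all probe sets fitted, and 9 with stricter filters. Clip1, a protein that tracks growing microtubule ends, rose from 8.31 ± 0.06 to 9.59 ± 0.18 (SD, n = 6), which is 2.43-fold. Ranbp10, a protein known to bind beta 1 tubulin in megakaryocytes, rose 1.95-fold, from 9.56 ± 0.08 to 10.52 ± 0.11 (SD, n = 6). Tubgcp4, a part of the gamma tubulin ring from which microtubules grow, rose 1.48-fold. Kif5b, a kinesin heavy chain that carries cargo along microtubules, fell 1.48-fold, from 14.27 ± 0.07 to 13.71 ± 0.09 (SD, n = 6). Each of these 4 moved the same way in 6 of 6 cultures, and their calls held under all 17 other settings, with limma adjusted p up to 0.00759.

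Of 5 genes known as NF-E2 targets in megakaryocytes, 2 fell, 0 rose and 3 did not pass, with a median of -0.14, beside 4.56% and 7.39% of all genes called lower and higher. The number that fell ran from 1 to 4 over the 17 other settings, with 4 after quantile normalization and 1 after centring and without culture 4. At an unadjusted p under 0.05 in limma 4 were lower and 0 higher. How many of all genes lay under that unadjusted p was not counted, so an excess was not shown. Rab27b, a small GTPase needed for granule secretion, fell from 14.96 ± 0.02 to 14.69 ± 0.05 (SD, n = 6), lower in 6 of 6 cultures by 0.27 on average (SE 0.04, limma adjusted p = 0.00351). Tbxas1, thromboxane synthase, fell by 0.20 (SE 0.04, limma adjusted p = 0.016), also in 6 of 6 cultures. That call was absent under 5 of 17 other settings, among them centring, no replicate block and leaving out culture 4, while that of Rab27b held under all 17. Lims1, an adaptor at integrin adhesions, differed by -0.14 (adjusted p = 0.0714 in limma), Casp12, a caspase, by -0.12 (0.139), and Hsd3b1, a steroid enzyme, was under the negative controls on every array.

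Of 7 other CNC and MAF factors 1 fell, 0 rose and 6 did not pass, with a median of -0.06, beside 4.56% and 7.39% of all genes. At an unadjusted p under 0.05 in limma 2 were lower and 2 higher, with the share of all genes not counted. The number that rose was 1 or 2 under 7 of 17 other settings. The fall was that of Maf, a large MAF factor with an activation domain that the small ones lack, from 9.85 ± 0.11 to 9.16 ± 0.15 (SD, n = 6), a change of -0.70 (SE 0.04) and 1.62-fold, seen in 6 of 6 cultures and called under all 17 other settings. Nfe2l2, which encodes NRF2, the CNC factor of the antioxidant response, was 14.79 ± 0.08 and 14.98 ± 0.13 (SD, n = 6) with a limma adjusted p of 0.0581. Keap1, which holds NRF2 back, differed by 0.17 (limma adjusted p = 0.0513), and the third small MAF gene, Maff, was under the negative controls on every array.

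Of 12 haem and antioxidant genes that BACH1 represses or NRF2 activates, 2 rose, 1 fell and 9 did not pass, with a median of 0.11, beside 7.39% and 4.56% of all genes. Gclc, the catalytic subunit of the enzyme that starts glutathione synthesis, rose most, from 10.63 ± 0.25 to 12.75 ± 0.37 (SD, n = 6), a 4.35-fold change with a limma adjusted p of 8.3e-07, higher in 6 of 6 cultures. Blvrb, a biliverdin reductase, rose 1.42-fold in 6 of 6 cultures, and its call was lost without cultures 2 and 3 (adjusted p = 0.0521). Txnrd1, thioredoxin reductase, fell by 0.25, a call absent under 9 of 17 other settings. Hmox1, the haem oxygenase best known as a BACH1 target, was near the negative control median, at 6.26 ± 0.15 and 6.38 ± 0.16 (SD, n = 6), with an adjusted p of 0.282 in limma. Nqo1 was 11.70 ± 0.28 and 11.83 ± 0.17 (SD, n = 6), with an adjusted p of 0.252.

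**Figure D5:**
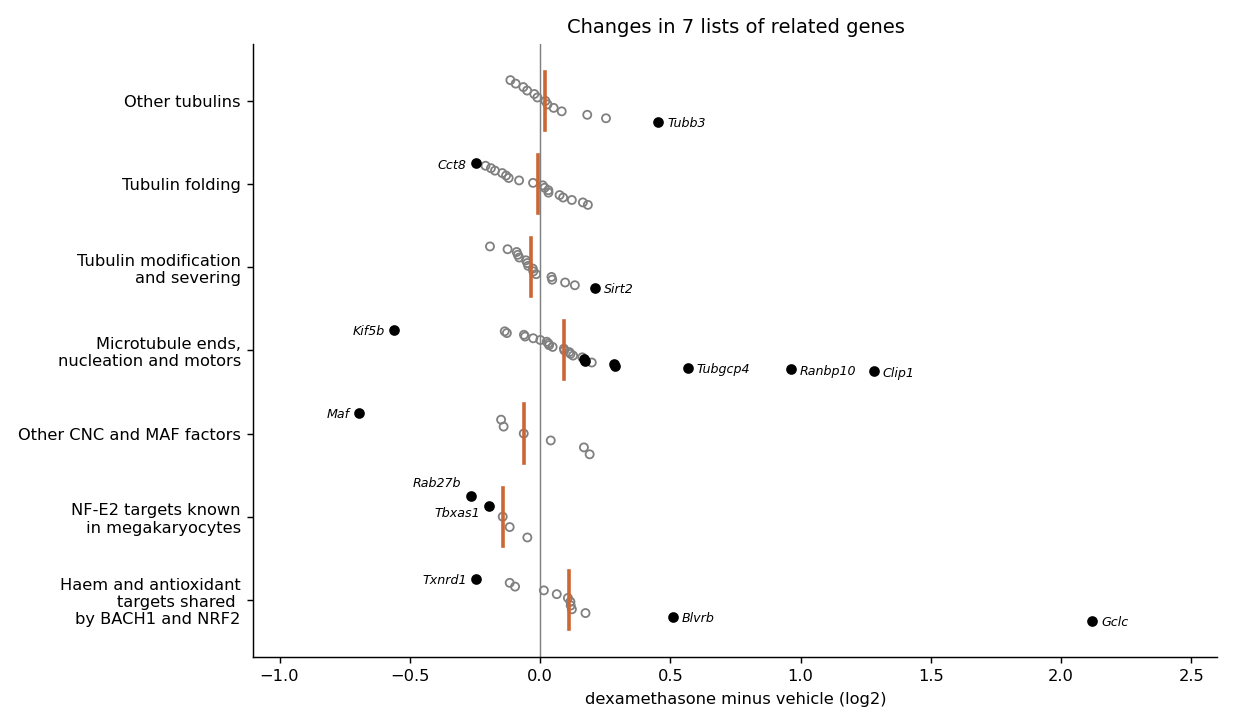
Dexamethasone minus vehicle on the log2 scale (x axis) for the tested genes of 7 lists (y axis), with filled points for genes at an adjusted p under 0.05, open points for the others and an orange bar for the list's median. Among the other tubulins Tubb3 lies farthest right (0.45), followed by Tubb2a (0.25), and Clip1, Ranbp10 and Tubgcp4 lie to the right of the other microtubule genes.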

How the data were processed

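RNA of 12 arrays was analysed, 6 vehicle and 6 dexamethasone, paired by culture because the labels' protocols say that each culture was divided. The authors deposited 1 log2 value per probe set and array. Their background correction and normalization were not stated in the sources used here, and the scale was inferred from their range. They were used as deposited. GEO's probe table gave 1 gene symbol to 30604 of 72688 probe sets; 22818 matched the RefSeq table (GRCm38.p6), which updated 827 symbols. A gene was its probe set with the highest mean, and entered the fit if above the 25th percentile of the array on at least 6 of 12 arrays.

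The fit was limma 3.58.1 (R 4.3.3), lmFit and eBayes with culture as a fixed block, two-sided, Benjamini-Hochberg over all 24265 genes, called at 0.05. The fit was tested on simulated data. Relations across cultures used two-sided exact permutation over 720 pairings (SciPy 1.17.1); that between treatments was added after the data were seen. Same-culture arrays deviated together (correlations 0.049 to 0.247, mean 0.157, against -0.032 for different cultures; 4 of 6 over 0.1). Members and lists were chosen with earlier results of these data known. In each list up to 4 called genes of largest change were named, with members at the bottom of the scale; for Tubb1, the 5 most correlated genes by each measure. Tubb2a, Tubb2b, Tubb5, Tuba1a, Tuba1c, Lims1, Casp12, Nfe2l2, Keap1, Hmox1, Nqo1 and the neutrophil and monocyte genes were named after their values were seen. Alternatives covered scaling, filters, block, variance prior, probe sets and cultures. Limma p-values set the mean change against the spread of the changes over cultures, with the cultures' own levels taken off by the block. In eBayes that spread is drawn toward the spread of all genes, and the SE of each change holds the same adjustment. Permutation p-values count how often other pairings of the arrays gave a correlation at least as large in size. Markers with no probe set of a single symbol were not analysed here.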

Additional observations from a re-analysis of the deposited data

Results flagged for a closer look

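Tubb6 in culture 6 with dexamethasone, at 6.34, stood apart from the other 5 dexamethasone arrays, which lay between 6.70 and 6.85. Its gap to the nearest of them was 0.718 of the whole range, above the critical value of Dixon's test for 6 arrays. Of 16 sets of 6 arrays examined this was the only one, and chance alone would pick out about 1 in 20. Without culture 6 the change of Tubb6 was -0.24 with a limma adjusted p of 0.0865.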

How the results depend on the processing

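None of the 8 genes changed direction under other scalings or with cultures left out, and Tubb1 stayed between -1.21 and -1.12. The rest of the 17 other settings (filters, block, variance prior and probe sets) cannot alter the mean change of these genes, only the call. Bach1 kept its call under all 17, and Nfe2 and Mafg passed under none. For Tubb6 the call ended after centring on medians (-0.27, adjusted p = 0.0647), without the replicate block (-0.29, 0.054), with all probe sets fitted (-0.29, 0.0998) and without cultures 2 and 3 (-0.34, 0.106), and leaving out each culture gave -0.32 to -0.24. For Tuba4a it ended without the replicate block (-0.22, 0.146), with culture as a random replicate block (-0.22, 0.0751) and without cultures 2 and 3 (-0.25, 0.0505). Tuba8 passed with a filter at the 50th percentile (0.22, 0.0488) or at the negative control median (0.22, 0.0378), where fewer genes are tested, and leaving out each culture gave 0.18 to 0.28. Mafk passed with culture as a random replicate block (0.19, 0.0406). These are limma values, and apart from the fewer genes tested the cause was not tested. Leaving out each culture gave 1878 to 2331 calls, 1164 to 1520 higher and 712 to 853 lower, and leaving out cultures 2 and 3 together 1269 (731 and 538). Lower calls were 1738 after quantile normalization and 726 after centring. In the 7 lists together, of 111 genes listed and not all tested, 11 rose and 6 fell. This stands beside 7.39% and 4.56% of all genes tested in the main fit. Those are shares of genes tested, so the 111 listed are too large a base to set beside them. The calls over all genes moved with the settings as well. The rises were 7 with all probe sets fitted, 6 without cultures 2 and 3, and 7 to 9 when each culture was left out. The falls were 16 after quantile normalization, 3 after centring, 10 and 11 with the filters at the 50th percentile and the negative control median, 11 with culture as a random replicate block, 10 with trend and robust, 3 with all probe sets fitted, and 3 to 6 when each culture was left out. Rank correlations of Tubb1 and Tuba4a missed the threshold after adjustment (0.117 and 0.0778). Tubb3 and Hmox1 were under the negative control median on some arrays, so their levels there are not set apart from background.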
